A study of Mus musculus with 172 samples.

Results

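Described here are 9 genes of the tight junction, taken by symbol from the 49671 genes counted in each cell, with 1 Ensembl gene for each symbol. They are the claudins Cldn3, Cldn4, Cldn6 and Cldn7, the other membrane proteins F11r, Ocln and Ildr1, and the scaffold genes Tjp1 and Cgn. Their mRNA was measured by Smart-seq2, a full-length single-cell RNA-seq method, in 172 cells of the mouse inner cell mass (ICM), to compare control blastocysts with blastocysts that lack OCT4, the transcription factor encoded by Pou5f1. All embryos came from natural matings of Oct4+/- mice of mixed genetic background. WT and HET embryos have at least 1 intact Oct4 allele and served together as controls, and MUT embryos have none. The E3.5 sets are WT/HET with 58 cells of 7 embryos, of which 5 are WT and 2 HET, and MUT with 29 cells of 4 embryos. At E4.5 the study assigned the 66 control cells of 6 embryos, 2 WT and 4 HET, to epiblast (EPI, 37 cells) or primitive endoderm (PrE, 29 cells) from these same transcriptomes, and the MUT set holds 19 cells of 2 embryos. The trophectoderm (TE) was lysed by immunosurgery and used for genotyping, so it is not among the sets. Each stage was processed on its own plate. Stage and plate therefore cannot be told apart, and levels of the stages stand side by side with no test between them, except that the MUT effect was compared between stages.

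Tight junctions are belts of strands that seal the gap between neighbouring epithelial cells near their apical edge. Claudins form the strands and set which ions pass, occludin (Ocln) joins them, F11r encodes the adhesion protein JAM-A, and Ildr1 encodes a protein of the angulin family, which marks the corners where several cells meet. The scaffolds ZO-1 (Tjp1) and cingulin (Cgn) tie these membrane proteins to the actin skeleton below. In the blastocyst the TE is the outer epithelium whose tight junctions hold the fluid of the cavity. The ICM lies inside it, and the PrE becomes an epithelium on the cavity side of the ICM.

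The cell is the unit of measurement and the embryo is the replicate. For each embryo and set the counts of its cells were added up, which gave 25 sums of 2 to 11 cells and 2736296 to 17453036 counts. Levels are CPM (counts per 1000000 after trimmed-mean scaling over the 25 sums) unless FPKM (CPM per kilobase of exon) is named. Pou5f1 followed the labels. It stood at 199 to 435 CPM in the E3.5 WT/HET embryos and 2.73 to 5.93 CPM in the E3.5 MUT embryos, and it had 0 counts in the E4.5 MUT cells. EPI and PrE carried their defining markers: Nanog had a count in 37 of 37 EPI cells and in 5 of 29 PrE cells, and Gata4 in 29 of 29 PrE cells and in 5 of 37 EPI cells. Some markers of the TE moved with OCT4 loss. The summed level of 16 TE markers ran from 262 to 998 CPM in E3.5 WT/HET embryos, from 1049 to 2119 CPM in E3.5 MUT embryos, from 146 to 355 CPM in EPI, from 834 to 1851 CPM in PrE, and reached 7849 and 10013 CPM in the 2 E4.5 MUT embryos. Fabp3 made up 62.6% to 90.1% of that sum in PrE and 46.6% and 47.5% in E4.5 MUT. Without this marker, singled out after its values were seen, the sums were 233 to 909 CPM in E3.5 WT/HET and 665 to 1367 CPM in E3.5 MUT, which overlap, 91.2 to 189.6 CPM in EPI, 109 to 532 CPM in PrE, and 4119 and 5349 CPM in E4.5 MUT. Each of the 16 had counts in the E4.5 MUT cells, with the defining markers Cdx2 in 4, Eomes in 15 and Elf5 in 3 of 19 cells, whereas Cdx2, Elf5 and Krt7 were at 0 in EPI, Elf5 and Krt7 in PrE, and Krt19 in E3.5 WT/HET, while Gata2 was among those at 0 in E3.5 MUT. The study names some of these markers from the same cells, so the list is not independent evidence.

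The 9 genes lie on 8 chromosomes of GRCm38. Cldn3 (chromosome 5, 134986214 to 134987472, plus strand) and Cldn4 (chromosome 5, 134945119 to 134946934, minus strand) are neighbours with 39279 bases and no annotated gene between them, and each is a gene of 1 exon. The promoter window of a gene, 250 bases before to 50 bases after its RNA start, was read from RefSeq (GRCm38.p6) and matched all 9 genes in 11 windows, since Cldn7 and Ocln have 2 each. The 4 sequences below are the upstream parts for the neighbours Cldn3 and Cldn4, for F11r, which was higher in MUT at both stages, and for Ildr1, which had no counts in E3.5 MUT. Each is written 5′ to 3′ on the strand of its gene, with the E-box CACCTG, in either orientation, in capitals. They span chr5:134985964-134986213 for Cldn3, chr5:134946935-134947184 for Cldn4, chr1:171437311-171437534 for F11r and chr16:36693728-36693977 for Ildr1. The part for F11r ends where the GENCODE gene begins, short of its RefSeq RNA start.
Cldn3: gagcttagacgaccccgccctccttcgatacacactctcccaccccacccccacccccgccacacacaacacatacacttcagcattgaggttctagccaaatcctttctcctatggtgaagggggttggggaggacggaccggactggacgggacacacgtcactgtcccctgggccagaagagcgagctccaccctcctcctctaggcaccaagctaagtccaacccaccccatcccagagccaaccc
Cldn4: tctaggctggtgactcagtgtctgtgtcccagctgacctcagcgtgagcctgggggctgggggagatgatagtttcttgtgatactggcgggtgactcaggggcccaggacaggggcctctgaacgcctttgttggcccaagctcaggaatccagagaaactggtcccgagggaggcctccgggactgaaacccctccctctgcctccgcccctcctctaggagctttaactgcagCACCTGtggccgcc
F11r: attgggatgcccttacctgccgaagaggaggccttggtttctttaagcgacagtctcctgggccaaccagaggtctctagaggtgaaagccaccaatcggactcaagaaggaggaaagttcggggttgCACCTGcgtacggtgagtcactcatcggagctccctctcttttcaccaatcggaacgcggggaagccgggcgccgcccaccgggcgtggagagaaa
Ildr1: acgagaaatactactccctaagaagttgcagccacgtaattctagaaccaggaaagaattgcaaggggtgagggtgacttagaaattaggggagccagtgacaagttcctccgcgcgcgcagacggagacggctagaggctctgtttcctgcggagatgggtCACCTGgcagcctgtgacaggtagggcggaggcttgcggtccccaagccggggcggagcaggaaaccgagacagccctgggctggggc

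Over the full windows and both strands, the E-box was found in 7 of the 9 genes, which were Cldn3, Cldn4, Cldn6, Cldn7, F11r, Ocln and Ildr1. It stood in 8 of the 11 windows of the 9 genes and in 20.2% of all 32851 windows of the table. With the RNA start at position 0, it lay at -14 to -9 and again, reversed, at 11 to 16 in Cldn4, at -122 to -117 in F11r and at -88 to -83 in Ildr1, and reversed at 31 to 36 in Cldn3, past the end of the printed part. The SP/KLF motif GGGCGG was found in 9 of 9 genes, in 10 of the 11 windows, and in 35.7% of all windows. The TFAP2 motif GCCNNNGGC was found in Cldn3, F11r, Ocln, Tjp1 and Ildr1, in 5 of the 11 windows, and in 16.6% of all windows. The TEAD motif GGAATG stood in Cldn6 and Cldn7, in 2 of the 11 windows, and in 14.7% of all windows. The octamer ATGCAAAT (1.74% of all windows) and the GATA motif AGATAA (11.2%) stood in none of the 11. A TFAP2 match and an E-box share 1 base in Cldn3, and a TFAP2 and an SP/KLF match overlap in Ocln. These matches are letters in a short window and were not tested against the counts.

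At E3.5, Ildr1 had no counts in MUT, while Cldn4 and, by less, F11r were higher in MUT than in WT/HET. In edgeR's quasi-likelihood test 3 of the 8 genes tested had an adjusted p under 0.05, 2 higher and 1 lower, against 6.18% of all 12075 genes tested. Of all genes 3.20% were called higher and 2.98% lower. Cldn3 had too few counts to be tested. The median log2 change was 0.11 over the 8 genes and -0.02 over all genes.

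Ildr1 (chromosome 16, 36693978 to 36726804, plus strand) was the only gene of the 9 with no count at all in a set. The 7 WT/HET embryos ran from 21.2 to 80.6 CPM with a median of 59.2 CPM, and the 4 MUT embryos all stood at 0 CPM, with no overlap, as for 3.99% of all genes that were lower in MUT. It had 4733 counts in WT/HET and 0 in MUT, so MUT was at least 776-fold lower when its whole group is given a floor of 3 counts (edgeR adjusted p = 0.000297). A count was found in 53 of 58 WT/HET cells and in 0 of 29 MUT cells, which would allow a share of cells with a count of up to 11.9% if cells were independent (exact 95% interval), and this bound leaves out the spread between the 4 embryos. The embryo means of these shares were 91.0% and 0%, with the smallest p that the exact permutation test of embryo labels can give, 0.00303, or 0.0545 after adjustment over all 36 share tests. The call held in each of the 11 fits that left out 1 embryo, with adjusted p from 0.000544 to 0.00133. The 2 HET embryos had 59.2 and 71.4 CPM, within the WT range of 21.2 to 80.6 CPM.

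Cldn4 was the 1 claudin of the 4 that was called at E3.5. Its WT/HET embryos ran from 28.1 to 112 CPM, with a median of 63.0 CPM. The 4 MUT embryos stood at 123, 176, 236 and 264 CPM, all above the highest WT/HET embryo. The means were 200.1 ± 63.0 CPM (SD, n = 4) and 68.8 ± 30.99 CPM (SD, n = 7), a 2.91-fold difference, with log2 1.56 ± 0.34 (SE) and an edgeR adjusted p of 0.0174. Of all genes tested 3.59% were higher in MUT without overlap. Nearly all cells of both sets had a count, 57 of 58 and 29 of 29, and the median count per cell was 59 and 168. The call was lost without MUT embryo 10 or 17, with adjusted p over the 11 fits from 0.0140 to 0.0570.

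F11r (chromosome 1, 171437535 to 171464603, plus strand) stood at 153 to 244 CPM in WT/HET, with a median of 180.1 CPM, and at 231, 277, 283 and 343 CPM in MUT. The lowest MUT embryo lay below the highest WT/HET embryo, so the groups overlapped. Their means were 284 ± 45.8 CPM (SD, n = 4) and 188 ± 33.8 CPM (SD, n = 7), with log2 0.62 ± 0.16 (SE) and an edgeR adjusted p of 0.0446. This call is at the edge of the threshold. It held in 3 of the 11 fits without 1 embryo, those without 11, 15 or 19, and was lost without 9, 10, 12, 13, 14, 16, 17 or 18, with adjusted p from 0.0321 to 0.123 over all 11. It was also lost with no filter on low counts (adjusted p = 0.0767) and with the HET embryos left out of the controls (adjusted p = 0.0519).

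The remaining genes did not pass the test at E3.5. Cldn7 (chromosome 11, 69964779 to 69967885, plus strand) had the highest mean per length of the 4 claudins, at 133 FPKM in WT/HET and 117 FPKM in MUT, with log2 -0.18 ± 0.21. It was the highest of them in 7 of 7 WT/HET sums and in 2 of 4 MUT sums, and Cldn4 was the highest in the other 2, with a MUT mean of 110.2 FPKM. Ocln stood at 41.4 ± 12.3 and 40.3 ± 18.9 CPM. The scaffolds Tjp1 and Cgn stood at 25.996 ± 11.6 and 28.2 ± 12.8 CPM in WT/HET and at 43.8 ± 18.2 and 33.01 ± 11.4 CPM in MUT, with edgeR adjusted p of 0.229 and 0.772. Cldn6 was near 0 in both sets except in HET embryo 15, which had 37.5 CPM from 5 of its 9 cells. That embryo also had the highest summed TE markers of the WT/HET embryos, 998 CPM, and the part of those markers in its Cldn6 level was not tested. Cldn3 had 75 counts in WT/HET and 6 in MUT. Its counts lay in 10 of 58 and 2 of 29 cells, and the embryo means of these shares, 16.9% and 5%, gave an exact permutation p of 0.00303, the smallest possible, and 0.0545 after adjustment. TE markers moved with the higher Cldn4 and F11r levels at this stage, with 3 of 11 tested markers called higher in MUT and none lower, and markers of the other lineages moved as well. Of the EPI markers 5 of 9 tested were lower in MUT, with summed levels of 411 to 1098 CPM against 773 to 1509 CPM, and Nodal was at 0 in both sets. Of the PrE markers 2 of 7 were higher, Col4a1 and Dab2, with summed levels of 381 to 607 CPM against 99.4 to 317 CPM, where Sox17, Sox7 and Foxa2 were at 0 in MUT and Foxa2 in WT/HET. The part of these markers in the levels of the 9 genes was not tested.

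**Figure D1:**
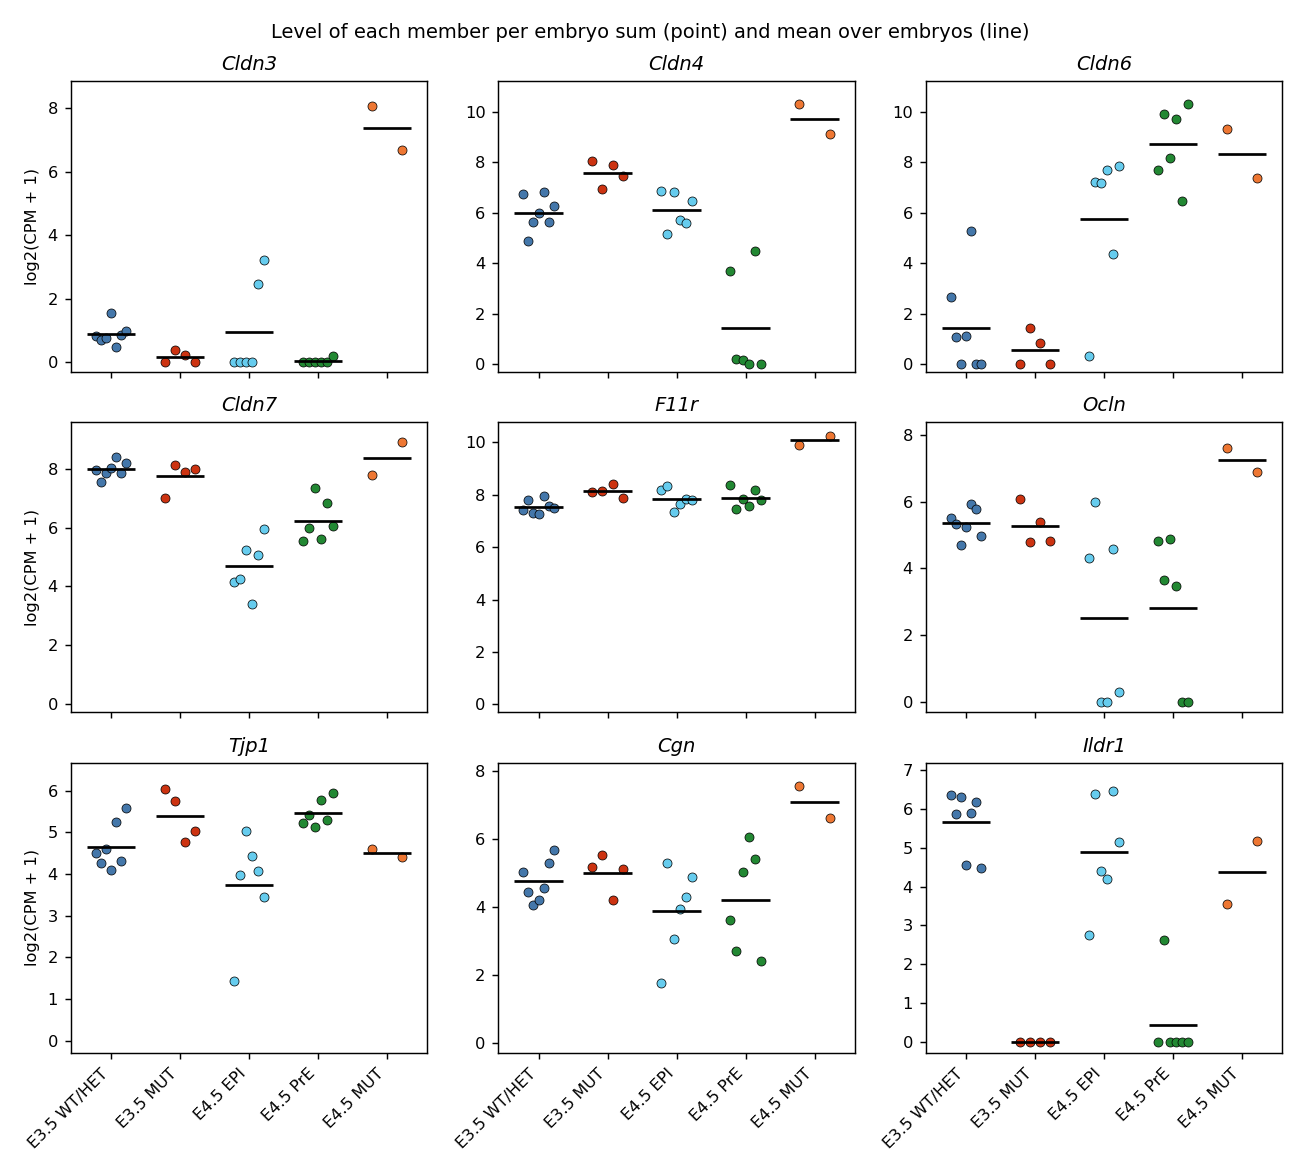
Level of each of the 9 genes in the 25 embryo sums, as log2(CPM + 1) on the y axis, by set on the x axis. Points are embryos and lines are means of the plotted values; the 4 E3.5 MUT embryos lie at 0 for Ildr1, and the 2 E4.5 MUT embryos lie above all other sums for Cldn3, Cldn4, F11r, Ocln and Cgn.

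At E4.5 the MUT cells held more Cldn4, Cldn7 and F11r mRNA than either control lineage. By the main edgeR fit Cldn3 was called against PrE alone, and Cldn6, Ocln, Tjp1, Cgn and Ildr1 were called in neither comparison. Of other fits against EPI, DESeq2 called 4 of the 9 genes, edgeR with no filter on low counts 5 and limma-trend 6. In the main fit against EPI, Cldn4, Cldn7 and F11r were higher in MUT, 3 of 9 genes tested and none lower. Of all 12953 genes 4.92% were called there, 2.30% higher and 2.62% lower. Against PrE, Cldn3, Cldn4, Cldn7 and F11r were higher, 4 of 9 and none lower, where 3.81% of 12246 genes were called, 1.74% higher and 2.07% lower. Both comparisons use the same 2 MUT sums and share them as one arm. The groups did not overlap, with MUT higher, for 6 of 9 genes against EPI and 7 of 9 against PrE, where 14.4% and 14.3% of all genes did so. Tjp1 was lower in MUT than in every PrE sum, as were 7.79% of all genes, and none of the 9 was lower than every EPI sum, where 9.67% of all genes were. The median log2 change of the 9 was 2.92 against EPI and 2.44 against PrE, with -0.03 and 0.05 over all genes. Since the 9 were chosen with earlier results known, this contrast is no independent evidence. When only WT embryos served as controls, 2 on each side, edgeR called none of the 9 in either comparison. It then called 48 and 27 of all genes, against 637 and 466 with all controls. Of the 9 genes, 5 against EPI and 6 against PrE then had an unadjusted edgeR p under 0.05, the same numbers as with all controls. With all controls 19% and 16.5% of all genes tested had such a p. The share of all genes with WT controls alone is not given, so the numbers of that fit have no matched background.

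Cldn3 was nearly absent from the control lineages. The 2 MUT embryos had 265 and 100.7 CPM. EPI had counts in 2 of its 6 embryos, 4.46 and 8.35 CPM, and PrE had a single count in 1 embryo. Against PrE the counts of 5800 and 1 gave a ratio of 9831, with a counting interval of 1764 to 388380, and an edgeR adjusted p of 0.000116. Against EPI the ratio of means was 85.7, with log2 6.34 ± 1.75 (SE), and the adjusted p of 0.0723 missed the threshold. In MUT 16 of 19 cells had a count, in EPI 3 of 37 and in PrE 1 of 29. The gene shares 40 bases of exon with the antisense gene Wbscr25, which had 31 counts over all cells.

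Cldn4 reached 1264 and 559 CPM in the 2 MUT embryos. EPI ran from 35.1 to 116 CPM with a median of 69.0 CPM, and PrE from 0 to 21.2 CPM with a median of 0.127 CPM. The lowest MUT embryo was thus above every EPI and PrE sum. The highest PrE value came from embryo 6, whose PrE sum holds 2 cells. The log2 change was 3.59 ± 0.44 (SE) against EPI (edgeR adjusted p = 0.00187), a 12.2-fold ratio of means, and 7.52 ± 1.71 against PrE (adjusted p = 0.0438). Against EPI it was called in all 8 fits without 1 embryo. Against PrE it was called only in the fit without embryo 6 and was lost without 1, 2, 3, 4, 5, 7 or 8, with adjusted p from 0.0292 to 0.202.

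Cldn7 in MUT was above both control lineages of E4.5. MUT had 222 and 493 CPM. EPI ran from 9.69 to 61.7 CPM with a median of 25.3 CPM, and PrE from 46.3 to 164 CPM with a median of 64.6 CPM. The 11 embryos of E3.5 ran from 129 to 345 CPM, which the range of the E4.5 MUT embryos overlaps. The log2 change was 3.57 ± 0.57 (SE) against EPI (edgeR adjusted p = 0.00751) and 2.11 ± 0.48 against PrE (adjusted p = 0.0432). Against EPI the call was lost without MUT embryo 8 (adjusted p up to 0.0879), and against PrE it held in the fits without 4 and without 6 and was lost without 1, 2, 3, 5, 7 or 8 (adjusted p up to 0.309).

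Cldn6 (chromosome 17, 23679249 to 23682446, plus strand) had its highest mean in PrE. PrE ran from 87.6 to 1258 CPM with a median of 562 CPM, EPI from 0.240 to 231 CPM with a median of 145 CPM, and the 2 MUT embryos had 629 and 162 CPM. MUT lay within the PrE range and overlapped EPI, and neither comparison passed the test, with edgeR adjusted p of 0.516 against EPI and 0.849 against PrE. It was present in 13 of 19 MUT cells, 30 of 37 EPI cells and 26 of 29 PrE cells.

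F11r had the smallest adjusted p of the 9 genes against EPI. MUT had 962 and 1203 CPM, EPI 160 to 321 CPM with a median of 225 CPM, and PrE 175 to 330 CPM with a median of 226 CPM. MUT was higher by log2 2.17 ± 0.24 (SE) against EPI (edgeR adjusted p = 0.00119) and 2.19 ± 0.25 against PrE (adjusted p = 0.00135). The call held in all 8 fits without 1 embryo in each comparison, where the adjusted p reached at most 0.0159 and 0.0136.

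Ocln (chromosome 13, 100496507 to 100552718, minus strand) stood at 193 and 117.9 CPM in MUT, above all EPI sums (0 to 61.8 CPM) and all PrE sums (0 to 28.6 CPM). It did not pass the test, at edgeR adjusted p of 0.367 against EPI and 0.224 against PrE. A count of Ocln was found in 18 of 19 MUT cells, 7 of 37 EPI cells and 12 of 29 PrE cells. Ildr1, which had no counts in E3.5 MUT, was present in E4.5 MUT at 10.7 and 35.3 CPM, from 6 of 19 cells. EPI ran from 5.75 to 87.9 CPM and overlapped MUT, with an edgeR adjusted p of 0.736, and PrE was at 0 in 5 of 6 embryos.

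Neither scaffold gene passed the test at E4.5. Cgn (chromosome 3, 94760069 to 94786492, minus strand) had 188 and 96.8 CPM in MUT against 2.40 to 38.7 CPM in EPI and 4.35 to 65.4 CPM in PrE. No control sum reached the lower MUT embryo, and the edgeR adjusted p was 0.0587 against EPI and 0.180 against PrE. Without EPI embryo 1, a sum of 3 cells, it was called against EPI, at an edgeR adjusted p of 0.0334. Tjp1 (chromosome 7, 65296165 to 65527781, minus strand) had 23.1 and 20.2 CPM in MUT, within the EPI range of 1.68 to 31.5 CPM and below the PrE range of 33.9 to 60.1 CPM. Its log2 change was 0.43 ± 0.94 against EPI and -1.02 ± 0.51 against PrE, with edgeR adjusted p of 0.888 and 0.366. TE markers were higher in the same 2 MUT embryos, with 6 of 15 tested called higher against EPI, 4 of 16 against PrE and none lower. Of the EPI markers, 6 of 10 were lower than in EPI, and against PrE 1 of 9, Nanog, was higher and 2 lower. Their summed level was 521 and 1169 CPM in the MUT embryos, 2544 to 4176 CPM in EPI and 191 to 442 CPM in PrE, with Gdf3 and Nodal at 0 in MUT and Fgf4 at 0 in PrE. Of the PrE markers, 2 of 9 were higher than in EPI, Col4a1 and Lama1, and 6 of 10 were lower than in PrE. They summed to 557 and 803 CPM in MUT, 5.75 to 74.1 CPM in EPI and 3012 to 7005 CPM in PrE, with Sox7 and Foxa2 at 0 in MUT. The part of these markers in the higher Cldn3, Cldn4, Cldn7 and F11r levels was not tested.

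**Figure D2:**
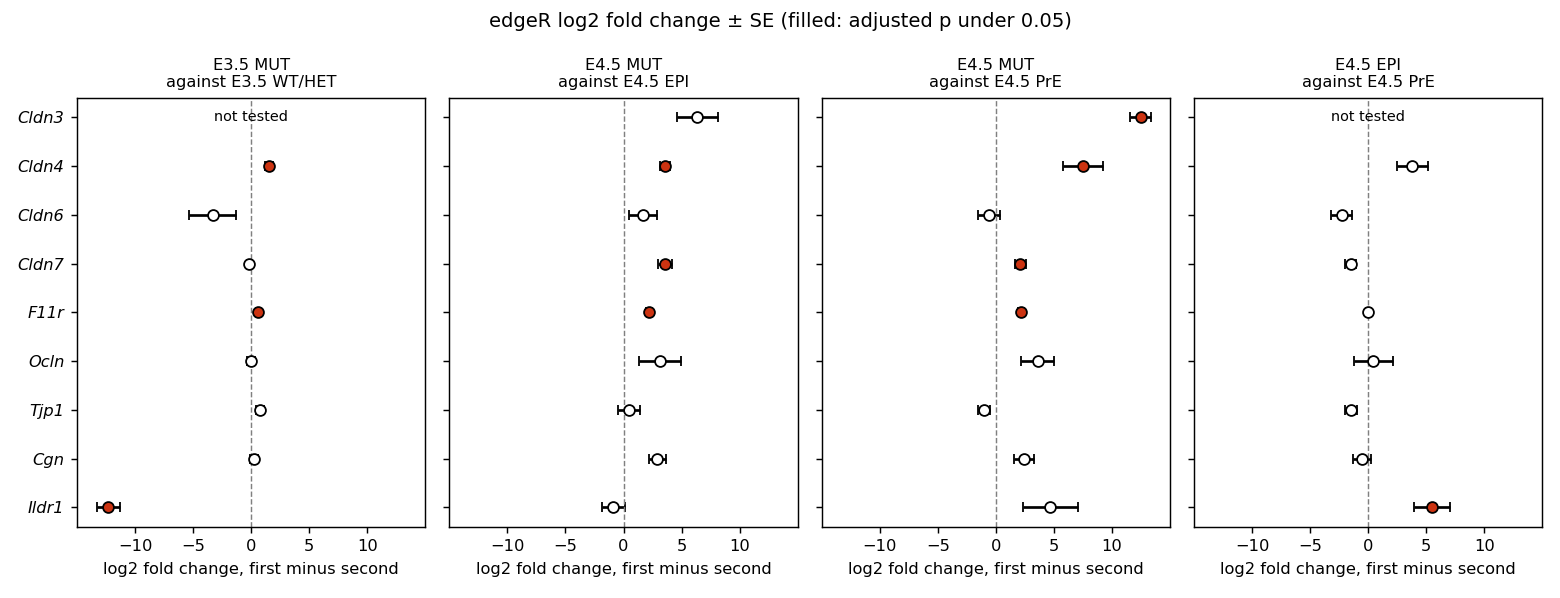
edgeR log2 fold change of each gene (x axis, first set minus second, bars are SE) in 4 comparisons of embryo sums. Filled points have an adjusted p under 0.05, which are Cldn4, F11r and Ildr1 at E3.5, 3 genes for MUT against EPI, 4 for MUT against PrE and Ildr1 for EPI against PrE. The Ildr1 value at E3.5 rests on 0 counts in MUT, so its size depends on the prior count and is no bound.

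Between the control lineages, the embryo means of Cldn4 (74.5 and 5.55 CPM) and Ildr1 (41.3 and 0.865 CPM) were higher in EPI and those of Cldn6, Cldn7 and Tjp1 in PrE, though 1 of the 8 genes tested was called, where 9.81% of 9762 genes were called, 4.61% higher and 5.20% lower. Ildr1 was higher in EPI than in PrE in 6 of 6 embryos, with EPI at 5.75, 17.2, 20.0, 34.6, 82.1 and 87.9 CPM and PrE at 5.19 CPM in embryo 2 and 0 in the others. Its log2 difference was 5.48 ± 1.58 (SE; edgeR adjusted p = 0.0412). The call held without embryo 2 (adjusted p = 0.00410) and was lost without 1, 4, 5, 6 or 7 (up to 0.122). With embryo as a block, since each embryo gave both an EPI and a PrE sum, edgeR called Ildr1 (adjusted p = 0.0101) and in addition Cldn4 as higher in EPI (log2 7.16, adjusted p = 0.0466, against 0.102 without the block) and Cldn7 as higher in PrE (log2 -1.62, adjusted p = 0.0322, against 0.0613). Without embryo 7 the fit with no block called Cldn7 too, at 0.0383.

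Direction within an embryo was uniform for several genes. Cldn4 was higher in EPI in 6 of 6 embryos, with no overlap between the groups for Cldn4 and Ildr1, as for 4.32% of all genes that were higher in EPI, and Cldn6, Cldn7 and Tjp1 were higher in PrE in 6 of 6. The means of Cldn6 were 606 ± 477 CPM in PrE and 124 ± 95.04 CPM in EPI (SD, n = 6), with log2 -2.28 ± 0.91 and an edgeR adjusted p of 0.148. Those of Tjp1 were 44.1 ± 10.5 and 15.7 ± 10.0 CPM, with no overlap between the groups and an adjusted p of 0.119. Of all genes 4.75% were lower in EPI without overlap. F11r had 236 ± 59.2 CPM in EPI and 238 ± 59.8 CPM in PrE, and a log2 difference of -0.01 ± 0.21. The classes were assigned from the same transcriptomes, so these values describe the assigned classes.

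The MUT effect itself differed between the stages. In an interaction fit on whole-ICM sums, 6 of the 9 genes had a more positive MUT effect at E4.5 than at E3.5 and none a more negative one, where 5.46% of 16410 genes were called, 2.71% more positive and 2.75% more negative. They were Cldn3 (log2 9.43 ± 2.16, SE), Cldn4 (2.83 ± 0.62), Cldn7 (2.92 ± 0.48), F11r (1.56 ± 0.26), Cgn (2.54 ± 0.62) and Ildr1, with edgeR adjusted p of 0.0140, 0.0113, 0.00152, 0.00177, 0.0205 and 0.000532. Ildr1 had no counts in E3.5 MUT and 622 counts in E4.5 MUT, and its fitted value of 12.43 depends on the prior count. Cldn7, F11r and Ildr1 kept their call in each of the 19 fits without 1 embryo. Cldn3, Cldn4 and Cgn lost it without MUT embryo 3, at adjusted p of 0.0768, 0.119 and 0.162. Ocln (3.37 ± 1.06, adjusted p = 0.0693, and 0.0123 without control embryo 7), Cldn6 and Tjp1 (-1.21 ± 0.56, adjusted p = 0.231) were not called. For TE markers 6 of 16 were called more positive in this fit and none more negative (median log2 4.76). Of the EPI markers 1 of 10 was more positive (median 0.01), and of the PrE markers 3 of 10 were more negative (median -3.63). The part of these markers in the change of the 9 genes was not tested. Since each stage is 1 plate, a difference of stage and one of plate cannot be told apart here.

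The share of cells with a count and the counts per cell gave different views of the genes. F11r, Cldn7 and Cldn4 were in nearly every cell of E3.5 and of E4.5 MUT. In the E4.5 controls F11r was in 37 of 37 EPI and 28 of 29 PrE cells. Cldn7 was in 29 of 37 EPI and 28 of 29 PrE cells, and Cldn4 in 29 and 6. The median count of F11r was 230 in E3.5 WT/HET cells, 384 in E3.5 MUT cells, 343 in EPI, 394 in PrE and 1428 in E4.5 MUT cells. Embryo means of the share with Cldn3 were 81.3% in E4.5 MUT, 7.14% in EPI and 3.33% in PrE, with an exact permutation p of 0.0357 against each, the smallest that 2 against 6 embryos allows. For Ocln they were 93.8% in E4.5 MUT, 21.7% in EPI and 36.2% in PrE, with exact permutation p of 0.0357 and 0.0714, and at E3.5 they were 95% in MUT and 87.2% in WT/HET. Tjp1 had a count in 64.8% of E4.5 MUT cells, 50.1% of EPI cells and 91.0% of PrE cells as embryo means, with exact permutation p of 0.214 against EPI and 0.0357, again the smallest possible, against PrE. None of the 36 share tests had an adjusted p under 0.05, and 10 had an unadjusted p under 0.05. Reads copied by PCR carry no molecular identifiers here, so reads are not independent counts. The counting intervals given for ratios treat pooled reads as independent and leave out the spread between embryos, so they are too narrow.

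**Figure D3:**
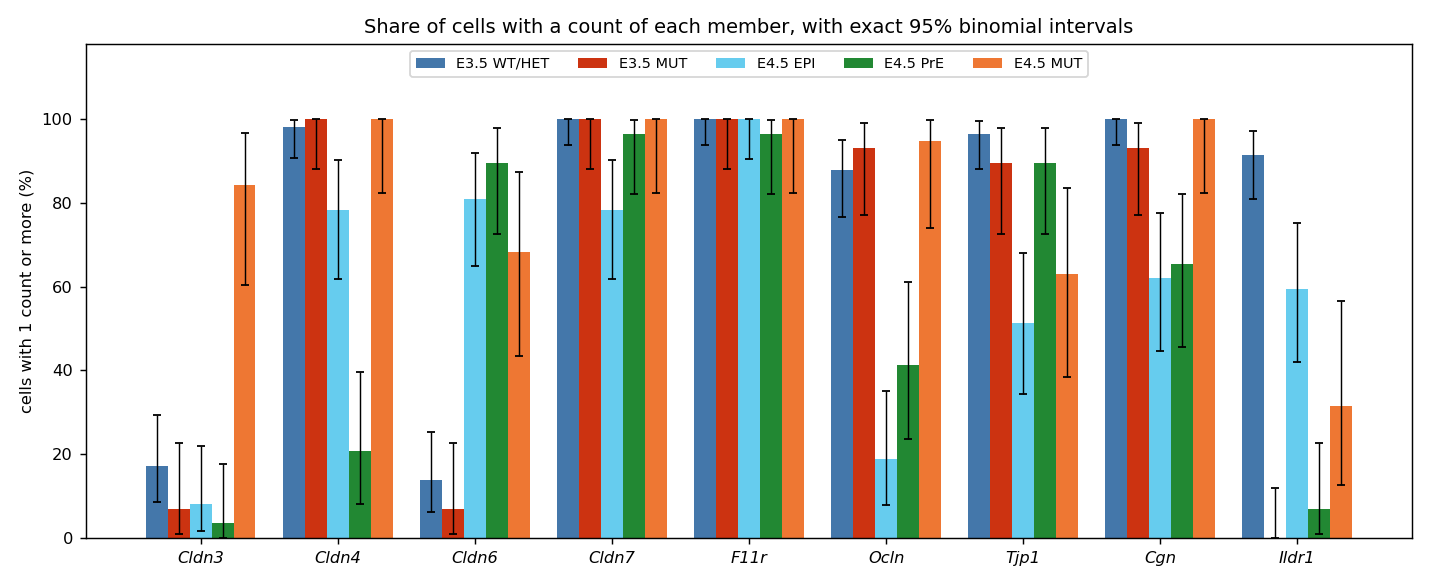
Share of cells with at least 1 count of each gene (y axis, percent) by set, with exact 95% binomial intervals that treat cells as independent. Ildr1 is at 0 of 29 E3.5 MUT cells, and Cldn3 is at 16 of 19 E4.5 MUT cells and at most at 10 of 58 cells in the other sets.

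Cells that held all 4 claudins at once were counted in each set. At 10 CPM or more, all 4 claudins were found in 10 of 19 MUT cells, in 2 of 37 EPI cells and in none of the 29 PrE, 58 E3.5 WT/HET or 29 E3.5 MUT cells. The 10 MUT cells were 7 of 11 in embryo 3 and 3 of 8 in embryo 8, and both EPI cells came from embryo 7. In PrE 24 of 29 cells held 2 of them. Cldn4 and Cldn6 were both at that level in 10 of 19 MUT cells, 19 of 37 EPI cells and 0 of 29 PrE cells, and Cldn3 was never found there without Cldn4 in any set. Occludin and cingulin were both present at that level in 15 of 19 MUT cells, 9 of 11 in embryo 3 and 6 of 8 in embryo 8, and in 1 of 37 EPI cells and 3 of 29 PrE cells. At E3.5 they were both present in 32 of 58 WT/HET cells and 13 of 29 MUT cells. Out of the 9 genes the median cell held 7 in E4.5 MUT, 5 in EPI, 4 in PrE, 6 in E3.5 WT/HET and 5 in E3.5 MUT at 10 CPM or more. Cells of an embryo share its source, so these counts describe the cells and were not tested.

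Levels per length give the make-up of the claudin mRNA, as a description with no test. The 4 claudins summed to 176 ± 47.1 FPKM in E3.5 WT/HET (SD, n = 7), 227 ± 19.7 FPKM in E3.5 MUT (n = 4), 129.99 ± 60.9 FPKM in EPI and 398 ± 263 FPKM in PrE (n = 6 each), and to 735 and 1386 FPKM in the 2 E4.5 MUT embryos. Cldn7 made up 77.3% ± 6.87 of the sum in E3.5 WT/HET and 51.3% ± 15.5 in E3.5 MUT, and Cldn4 20.8% ± 5.24 and 48.5% ± 15.7. In PrE Cldn6 made up 78.9% ± 21.4. In E4.5 MUT Cldn4 made up 41.9% and 50.2%, Cldn3 10.9% and 15.2%, and Cldn3 was at most 6.15% of the sum in any other embryo. In E4.5 MUT the scaffolds had means of 2.77 FPKM (Tjp1) and 23.6 FPKM (Cgn), against 406 FPKM for F11r. Of the membrane genes that are not claudins, Ocln and Ildr1 were also far below F11r in embryos 3 and 8. Ocln had 45.8 and 27.9 FPKM there and Ildr1 2.49 and 8.21 FPKM.

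**Figure D4:**
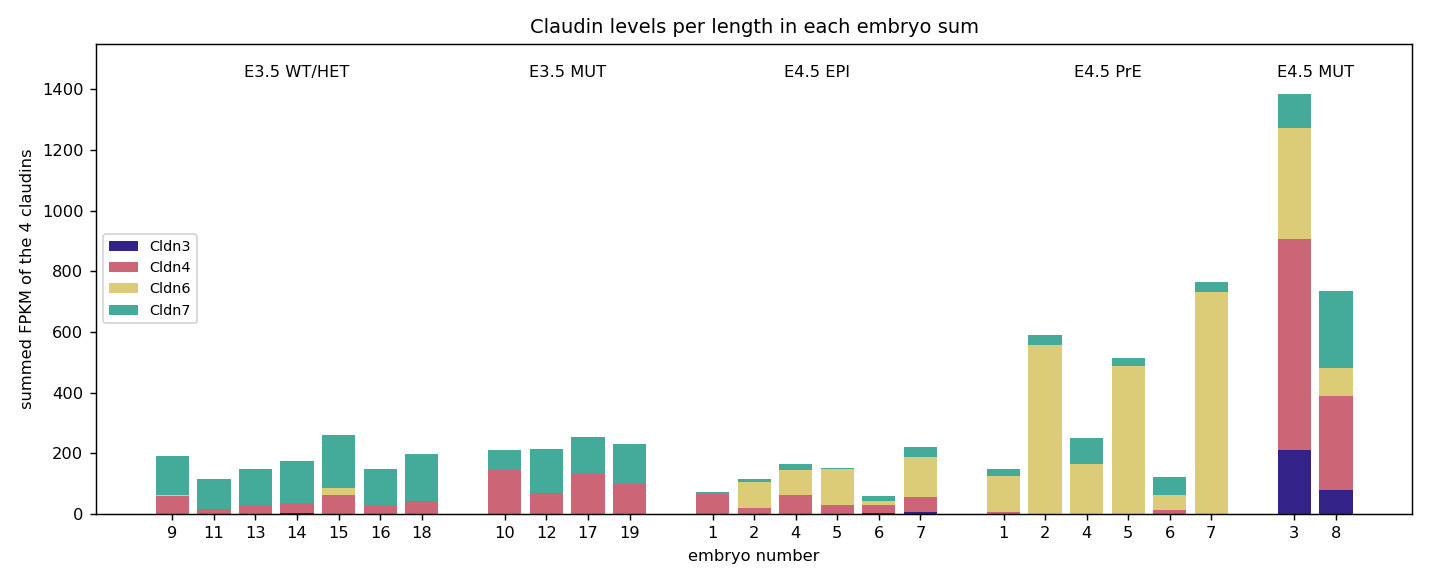
Summed FPKM of Cldn3, Cldn4, Cldn6 and Cldn7 (y axis) in each embryo sum (x axis, embryo number), stacked by gene and grouped by set. Cldn7 is the largest block in the E3.5 WT/HET embryos, Cldn6 in 5 of the 6 PrE sums, and Cldn4 in both E4.5 MUT embryos, which reach 735 and 1386 FPKM.

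The order of the sets by mean level was not the same for all genes. E4.5 MUT came first for Cldn3, Cldn4, F11r, Ocln and Cgn, with no overlap with the next set. For Cldn4 the E3.5 MUT embryos came second, again with no overlap with the next set, EPI. For Cldn7 E4.5 MUT came first and its range overlapped that of E3.5 WT/HET. PrE came first for Cldn6 and Tjp1, and E3.5 WT/HET for Ildr1, each with a range that overlapped the next set's.

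A list of 67 further genes of tight junctions, polarity and adherens junctions was written from general knowledge, and 64 were found in the annotation. At E3.5 none of 44 tested was called by edgeR, with 11 (25%) at an unadjusted p under 0.05, as were 21.4% of all genes, and a median log2 of -0.23. DESeq2 called 7 and limma-trend 6, shares of 15.9% and 13.6% beside 13.3% and 11.2% of all genes. For E4.5 MUT, 1 of 42 was called lower against EPI (median 0.50), and 1 of 43 was higher and 1 lower against PrE (median 0.55). These are shares of 2.38% and 4.65%, near or below the 4.92% and 3.81% of all genes, and show nothing particular to the list. DESeq2 called 4 in each, and limma-trend called 6 against EPI and 3 against PrE, where DESeq2 called 13.2% and 9.99% and limma-trend 11.4% and 8.96% of all genes. The 1 lower against EPI was Jam2, a junctional adhesion molecule related to F11r, which had 14.1 and 27.6 CPM in MUT and 121 to 531 CPM in EPI (log2 -3.93 ± 0.73, adjusted p = 0.0158). Against PrE, Epcam, an adhesion protein that binds claudins, was higher in MUT (545 and 933 CPM against 91.5 to 340.3 CPM, log2 1.95 ± 0.45, adjusted p = 0.0455). Jam3, a further member of that adhesion family, was lower, with 1 count in MUT and 3196 in PrE, a ratio of 1886 with a counting interval of 338 to 74496 (adjusted p = 0.00134). With WT embryos as the only controls, edgeR called 0 of 39 list genes against PrE, so the Epcam and Jam3 calls were lost. Against EPI it then called 1 of 38.

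Of 36 list genes tested between EPI and PrE, 1 was called higher in EPI and 3 lower by edgeR, 4 in all or 11.1%, beside 9.81% of all genes. With embryo as a block, since each embryo gave both sums, edgeR called 3 of the 36, so not all 4 calls were kept. The adjusted p of the 4 genes named below are from the fit without the block. DESeq2 called 9 (25%) and limma-trend 10 (27.8%), beside 14.8% and 18.7% of all genes. Jam2 was higher in EPI, with 311 ± 172 CPM against 3.86 ± 3.98 CPM in PrE (SD, n = 6; edgeR adjusted p = 0.000154). Jam3 was higher in PrE, with 61.3 ± 30.3 against 1.02 ± 2.503 CPM (adjusted p = 0.0241). Pard6g, which encodes a PAR6 polarity protein, had 1 count in EPI and 1644 in PrE (adjusted p = 6.17e-05), and Nectin2, an adherens junction protein, had 52.3 ± 11.1 and 117 ± 41.6 CPM (adjusted p = 0.0171). In the interaction fit 1 of 48 list genes (2.08%) was called by edgeR and 6 (12.5%) each by DESeq2 and limma-trend, beside 5.46%, 11.3% and 8.81% of all genes. The 1 was the scaffold gene Mpdz, which had 22 counts in E4.5 MUT, all from embryo 8, 0 in the E4.5 controls, 44 in E3.5 MUT and 481 in E3.5 WT/HET. Of the 22 further claudins on the list 19 were found, and at most 5 passed the filter on low counts in any of the 5 comparisons, none of them called by edgeR.

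**Figure D5:**
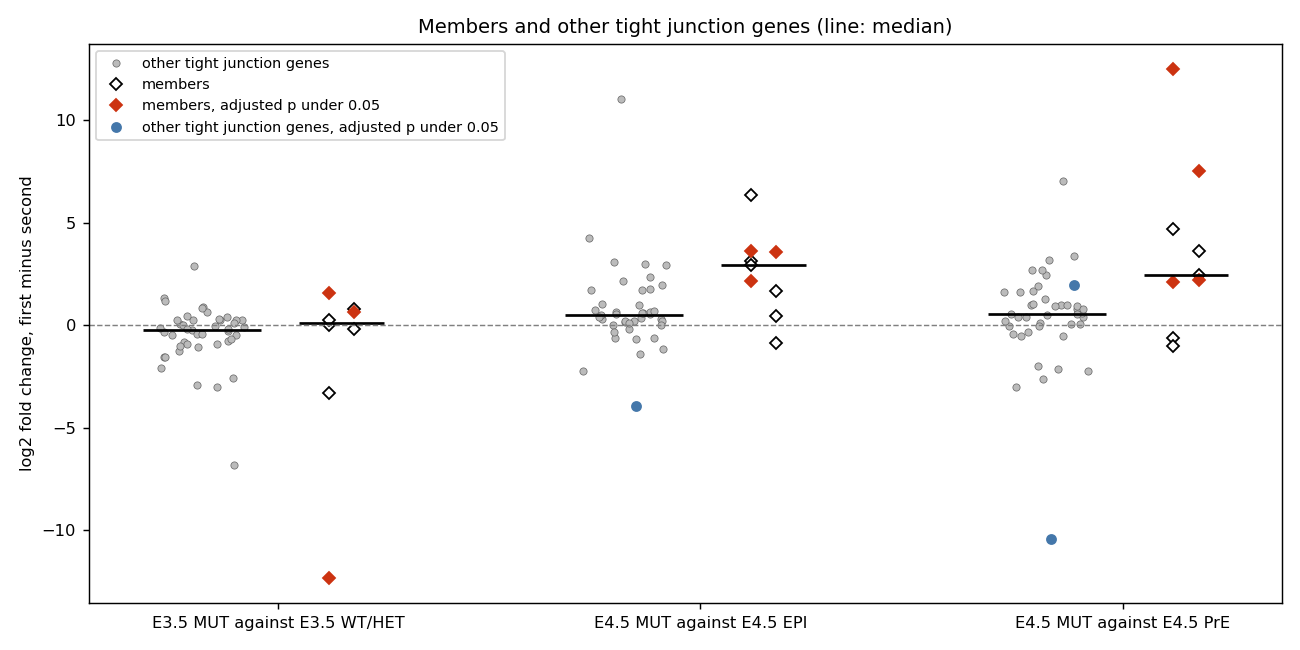
edgeR log2 fold change (y axis) of the other tight junction genes (circles) and of the 9 genes described (diamonds) in 3 comparisons, with the median of each as a line. Filled diamonds and blue circles have an adjusted p under 0.05. The median of the 9 is 2.92 for MUT against EPI and that of the other genes is 0.50. The 9 were chosen with earlier results of these data known, so this contrast is no independent evidence.

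Over the 25 sums, the genes whose log2(CPM + 1) was most like that of Cldn4 among 7821 genes with a mean of 10 CPM or more included AU018091 (Pearson r = 0.923) and Steap3 (0.901). For Ildr1 they were Phyh (0.798), Pigl (0.795) and Oas1a (0.794). Among the 9 genes themselves the highest correlation was that of Cldn3 with F11r (0.75) and the lowest that of Cldn4 with Cldn6 (-0.48), and the neighbours Cldn3 and Cldn4 had 0.51. The sums share embryos, plates and the 5 sets, so these correlations describe the pattern over sets, with no test.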

How the data were processed

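Single ICM cells were profiled by Smart-seq2 in 125-base read pairs. Per the study's methods and the labels, the authors aligned reads with STAR 2.5.2a to GRCm38 (mm10) and used htseq-count with the Ensembl 87 genes, and cells that failed their quality criteria were removed. The values deposited by the authors are raw counts per gene and cell, unnormalized, with no strand setting stated. Read pairs in no gene (4.72%), in several genes (8.65%) or aligned to several places (32.3%) are not in the counts of genes and were left out of library sizes. The share aligned to several places differed by stage, with cell medians of 38.8% in E3.5 WT/HET and 41.1% in E3.5 MUT. It was 24.9% in EPI, 19.7% in PrE and 22.0% in E4.5 MUT, and its part in the levels was not tested. Cells held 363819 to 4644070 counts, and no cell repeated another (highest correlation 0.899).

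Groups were taken from the titles, and embryo and plate from the study's list of cells, matched by exact title. Symbols and exons came from GENCODE M21 (GRCm38), which has 49412 of the 49671 genes. Counts were summed per embryo and set and tested with edgeR 4.0.16 (R 4.3.3; filterByExpr, TMM, quasi-likelihood F test), with p adjusted by Benjamini-Hochberg over all genes tested and a threshold of 0.05. The SE of a log2 change is its size divided by the square root of the F statistic. The procedure was tested on simulated data. Printed levels use TMM factors over all 25 sums. Shares of cells were compared by exact two-sided permutation tests over embryos, or sign flips within embryos for EPI against PrE. EPI and PrE sums are paired, since they come from the same 6 embryos by the study's list, and correlations of their deviations from the set means were 0.016 to 0.059, each highest with its own embryo. A fold against a group without counts is a bound that gives the group 3 counts. Motifs were searched by exact match in RefSeq promoter windows.

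Alternatives were DESeq2 1.42.0, edgeR scaled with the size factors of DESeq2, all genes without a count filter, limma-trend 3.58.1 on mean log2(CPM + 1) of cells, WT embryos as the only controls, embryo as a block, each embryo left out, levels without TMM, and for shares 5 counts, 1 CPM, 10 CPM, and cells thinned to 575047 (E3.5) or 932948 counts (E4.5), which left out 4 cells at each stage. The genes described, the lists and the tests were chosen with earlier results of these data known. Named are all 9 genes, per comparison and direction up to 3 called genes of the pathway list by smallest adjusted p, and the 3 genes most like Cldn4 and Ildr1, except that some items are not reported here.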

Additional observations from a re-analysis of the deposited data

Results flagged for a closer look

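In 35 groups of embryos tested with Dixon's criterion, 5 had an embryo far from the others. In 2 of them the other embryos were all at 0, which sets the criterion whatever the value, and chance gives about 1 in 20 in the remaining 33. Cldn6 in E3.5 WT/HET had 37.5 CPM in HET embryo 15 and 1.24 ± 2.03 CPM in the other 6 (SD), and its 656 counts came from 5 of 9 cells. Without that embryo the log2 change of Cldn6 in MUT was -0.98, against -3.31 with it, and neither passed the test. Cldn3 in E3.5 WT/HET was highest in WT embryo 14, at 1.89 CPM. Ocln in EPI was highest in embryo 2, at 61.8 CPM, with the next at 22.9 CPM. Ildr1 in PrE was 5.19 CPM in embryo 2 and 0 in the others, and Cldn3 in PrE was 0.132 CPM in embryo 7, from 1 count, and 0 in the others.

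The MUT effect differed between E3.5 and E4.5 in the interaction test for 6 genes, by log2 9.43 for Cldn3, 2.83 for Cldn4, 2.92 for Cldn7, 1.56 for F11r, 2.54 for Cgn and 12.43 for Ildr1.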

How the results depend on the processing

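The number of genes called among the 9 depended on the design most at E4.5, where 2 MUT embryos stand on 1 side. Against EPI it was 3, and 5 with no filter on low counts, 6 with limma-trend and 0 with controls restricted to WT, which leaves 2 embryos a side. Against PrE it was 4, and 0 with that restriction. Between EPI and PrE it was 1, and 3 with DESeq2, 4 with limma-trend and 3 with embryo as a replicate block. Among the 9 genes the block changed no call other than those of Cldn4 and Cldn7. Leaving out 1 embryo at a time gave 1 to 3 genes at E3.5, 2 to 4 against EPI, 2 to 4 against PrE, 0 to 1 for EPI against PrE and 3 to 7 for the interaction. Where such a fit left 1 MUT embryo, that embryo was assumed to vary like the other group.

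Directions turned only for values that had not passed the test. With limma-trend, which weights cells equally, log2 became 0.21 for Ocln and -0.30 for Cgn at E3.5, -0.42 for Cldn6 against EPI, 0.0147 for F11r and -0.59 for Ocln between EPI and PrE, and -1.16 for Cldn6 in the interaction. With WT controls alone Ocln at E3.5 was 0.21. Without single embryos log2 ran from -0.28 to 0.0174 for Cldn7 and from -0.38 to 0.15 for Ocln at E3.5, from -1.83 to 0.0749 for Cldn6 against PrE, and between EPI and PrE from -1.10 to 0.0234 for Cgn, from -0.20 to 0.0545 for F11r and from -0.65 to 1.08 for Ocln. Differences in the share of cells between EPI and PrE became 0.258 points for Cgn from 1 CPM, 0.119 for Cgn and -2.38 for F11r after thinning. Without single embryos they ran from -18.3 to 2.24 points for Cgn between EPI and PrE, and for Cldn6 in MUT from -39.8 to 13.6 against EPI and from -47.5 to 5.91 against PrE. The cause was not tested. With cells weighted equally, the median over all genes was -0.23 at E3.5, -0.20 against EPI and -0.24 against PrE. Over all genes, edgeR, DESeq2 and limma-trend called 746, 1607 and 1353 at E3.5, 637, 1711 and 1479 for MUT against EPI, 466, 1223 and 1097 for MUT against PrE, 958, 1447 and 1824 between the control lineages, and 896, 1850 and 1445 in the interaction. With WT controls alone edgeR called 435 at E3.5 and 470 in the interaction. Over the alternatives other than leaving out 1 embryo, of the log2 changes of the 9 genes 11 lost and 17 gained a call, 7 turned, and 177 kept call and direction. Over the fits that left out 1 embryo, 32 lost and 3 gained a call, 12 turned and 404 kept both. DESeq2 gave no adjusted p for 3 more, Cldn3 against EPI and in the interaction and Ildr1 against PrE.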
